A study of Mus musculus with 21 samples.

Results

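The genes described here encode subunits of the phagocyte NADPH oxidase: Cybb, Cyba, Ncf1, Ncf4 and Rac2. They were taken by symbol from the array probes whose RefSeq accession maps to one of these names, and make up 5 of the 14315 gene symbols tested. The 5 genes had 8 probes, and each gene was followed by its brightest probe, averaging all 21 arrays. All 5 passed the filter on dim probes. Cyba, Ncf4 and Rac2 were well above background on all 21 arrays, Ncf1 on 19 and Cybb on 15.

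RNA was measured in cells sorted from C57BL/6 mouse bone marrow, on one-colour Agilent arrays, with 7 fractions and 3 arrays for each. Every fraction came from mice with no stated treatment or allele, and the labels give neither age nor sex. The stem and progenitor fraction KLS was lineage-negative, c-Kit+ and Sca1+. On the erythroid side, PreMegE was CD150+, CD105- and Fc receptor-negative, CFUe was CD150- and CD105-, and Ter119 was the fraction positive for CD71 and Ter119. On the myeloid side, PreGM was CD150- and CD105-, GMP was CD150- and Fc receptor-positive, and Mac1Gr1 was the Mac1+ Gr1+ fraction. The labels print the same marker string for CFUe and for PreGM, and write the progenitors as Sca1+. Ly6a, which encodes Sca1, had a mean level of 2.57 in KLS, -3.14 in PreMegE and -0.31 in PreGM, and of the CFUe arrays 1 of 3 showed it well above background. The labels do not say whether arrays of a fraction came from separate mice, so p-values measure only the spread between these arrays.

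The oxidase makes superoxide when a phagocyte meets a microbe. Cybb (gp91phox, the catalytic subunit) and Cyba (p22phox, its partner) sit together in the membrane. Ncf1 (p47phox, the organiser) and Ncf4 (p40phox, which binds phosphoinositides on the phagosome) wait in the cytosol, and join the membrane pair with the GTPase Rac2 on activation. Loss of a subunit causes chronic granulomatous disease. Neutrophils and macrophages are its best known users.

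Promoter windows are shown for Cybb, Cyba and Ncf1. The promoter set used here had no window for Ncf4 or Rac2. Each window runs from 250 bases before to 50 bases after the start of the gene, is read 5′ to 3′ on the minus strand, and comes from RefSeq on GRCm38.p6. Capitals mark matches, on either strand, to 4 short motifs: GAGGAA, a sequence that PU.1-type factors can bind, then GGAAGT, another purine-rich site of the same family, then the CCAAT box, and lastly GATAA, the core bound by GATA factors.
Cybb, chrX:9469275-9469574: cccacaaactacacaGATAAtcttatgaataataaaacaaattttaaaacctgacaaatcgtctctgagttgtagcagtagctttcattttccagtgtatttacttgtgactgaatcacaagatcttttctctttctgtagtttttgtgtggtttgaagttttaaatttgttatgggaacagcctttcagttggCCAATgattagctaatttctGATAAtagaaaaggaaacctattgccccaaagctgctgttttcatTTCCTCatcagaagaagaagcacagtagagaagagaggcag
Cyba, chr8:122432891-122433190: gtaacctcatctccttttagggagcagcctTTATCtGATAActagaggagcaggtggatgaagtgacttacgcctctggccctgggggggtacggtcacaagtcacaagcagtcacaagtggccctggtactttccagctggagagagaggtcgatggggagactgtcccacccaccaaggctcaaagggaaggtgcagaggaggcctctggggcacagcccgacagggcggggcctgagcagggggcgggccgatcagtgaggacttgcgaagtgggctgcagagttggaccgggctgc
Ncf1, chr5:134229576-134229875: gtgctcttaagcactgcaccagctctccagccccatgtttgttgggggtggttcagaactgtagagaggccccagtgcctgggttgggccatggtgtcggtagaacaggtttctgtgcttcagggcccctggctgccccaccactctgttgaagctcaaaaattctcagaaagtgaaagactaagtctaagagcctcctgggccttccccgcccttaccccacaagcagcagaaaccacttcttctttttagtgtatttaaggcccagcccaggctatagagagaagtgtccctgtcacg
With the first transcribed base as position 1, the Cybb window held GAGGAA on the opposite strand at position 10, CCAAT at position -56, and GATAA at positions -235 and -36. The Cyba window held GATAA at position -214, and on the opposite strand at position -220. The Ncf1 window held none of these 4 motifs. Of 32851 mouse promoter windows of 300 bases, 28.3% held GAGGAA, 23.8% held GGAAGT, 37.4% held CCAAT and 25.4% held GATAA, so that each is common. These are matches of letters, and binding was not measured in this series.

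All levels are log2 values relative to the 75th percentile of the same array, so that 0 is that percentile. Changes are differences of mean log2 levels from limma, called at an adjusted p under 0.05 with at least a 2-fold change, with p-values adjusted over the 29532 probes tested. A fraction is compared as a bulk sample, in which more cells of a type and more RNA per cell cannot be told apart. Between 56.2 and 77.4% of probes were well above background on an array. Xist transcripts were present on 10 arrays and Y-linked transcripts on the other 11, a split that runs through CFUe and PreGM (replicates 1 and 2 against replicate 3) and separates Ter119 from Mac1Gr1 completely.

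By measured mean level, all 5 subunit transcripts put the 7 fractions in the same order: Mac1Gr1, Ter119, GMP, PreGM, KLS, PreMegE, CFUe. For Cybb the places of PreMegE and CFUe rest on values not well above background, which carry no order between these fractions. This order of measured means was the same in 36 of the 45 combinations of a gene and another way of processing all 21 arrays. Some of these could not differ. Dropping the dim-probe filter or adding a block for replicate number leaves the differences between fraction means unchanged. Averaging probes changes nothing for Cyba and Ncf4, which have 1 probe each. The exceptions included all 5 genes under scaling to the spiked-in control RNA, which put GMP above Ter119. It also put KLS above Ter119 for Cyba and Rac2, and PreGM above Ter119 for Rac2. The other exceptions were Cybb and Cyba under other settings. Fractions next to each other in that order did not always pass the test of their difference (limma, adjusted p under 0.05). PreGM against KLS missed it for Cybb, Cyba, Ncf4 and Rac2, and KLS against PreMegE for Cyba and Rac2. PreMegE against CFUe missed it for Cybb and Cyba, and GMP against PreGM for Ncf4. The arrays of PreGM and KLS overlapped for Cybb alone among those 4 genes. For Ncf1 every neighbour passed the test.

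**Figure D1:**
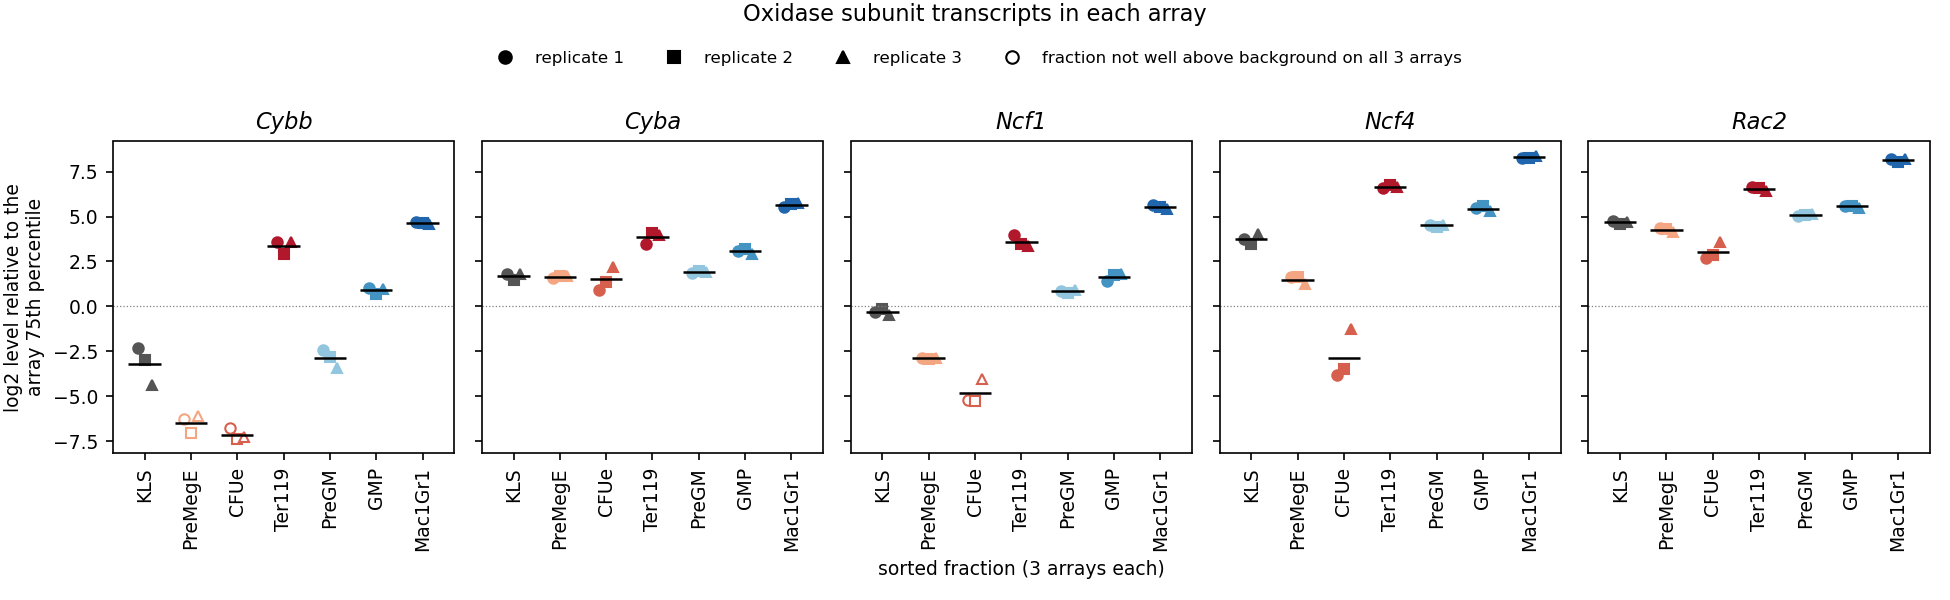
Log2 level of each subunit transcript relative to the array's 75th percentile (vertical axis, dotted line at 0) in the 7 sorted fractions, with 1 point per array and a black bar at the mean of 3 arrays; open symbols mark fractions in which the probe was not well above background on all 3 arrays. All 5 genes have their highest mean in Mac1Gr1, and Cyba, Ncf1, Ncf4 and Rac2 have their lowest in CFUe. Cybb was not well above background in PreMegE or CFUe, so its values there carry no order. The triangle of CFUe (replicate 3) lies above the other CFUe arrays for Cyba, Ncf1, Ncf4 and Rac2.

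Cybb, the catalytic subunit, was well above background on the fewest arrays of the 5. Its levels in KLS were -2.29, -2.96 and -4.36, and in the PreMegE arrays -6.26, -7.05 and -6.08. In CFUe they were -6.77, -7.36 and -7.29. The probe was not well above background on any PreMegE or CFUe array, so those measured values carry no order. Folds against these fractions are given below as approximate bounds. In Ter119 the levels were 3.59, 2.93 and 3.57. On the myeloid side they were -2.45, -2.80 and -3.41 in PreGM and 1.02, 0.70 and 0.96 in GMP. In Mac1Gr1 they reached 4.71, 4.64 and 4.60, with no overlap with any other fraction. KLS and PreGM overlapped. The 3 KLS arrays spread over more than 2 log2 units, and they followed the same order as the mean level of a 12-gene macrophage list (2.71, 1.86 and 1.17 for replicates 1, 2 and 3), whose part in the Cybb level of KLS was not tested.

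Against an approximate bound for the dim fractions, Cybb was 4.99-fold higher in KLS than in PreMegE (adjusted p = 7.67e-06). With normexp background correction the change was -0.94 (adjusted p = 0.0016), under the fold minimum. On such bounds Cybb was 6.21-fold higher in PreGM than in PreMegE (adjusted p = 3.19e-06) and 54.2-fold higher in GMP than in CFUe (adjusted p = 2.85e-11). For these bounds each dim array was set at its faintest probe that still counted as well above background. A probe not well above background can lie above that level, so the folds are not strict minimum values. The adjusted p-values are those of limma on the measured values, and the bounded differences were not tested. On the same bounds Mac1Gr1 exceeded PreMegE 1156-fold and CFUe 733-fold. Within the myeloid side Cybb rose from PreGM to GMP by 3.78 ± 0.40 (SE, adjusted p = 2.42e-06) and from GMP to Mac1Gr1 by 3.76 ± 0.40 (adjusted p = 1.75e-07), while PreGM against KLS gave 0.31 ± 0.40 (adjusted p = 0.626). A second Cybb probe was dimmer in GMP (-2.15) and Mac1Gr1 (2.94). It gave 2.22 for GMP against PreGM (adjusted p = 0.000391), -0.27 for PreMegE against KLS (adjusted p = 0.656) and -0.69 for PreMegE against PreGM (adjusted p = 0.213). The lower Cybb level in PreMegE was thus called by the brighter probe only. The second probe was well above background on 2 of 3 KLS, 1 of 3 PreMegE and 2 of 3 PreGM arrays, which limits what it can show there.

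Cyba, the membrane partner that stabilises gp91phox, was measured in every fraction and did not follow Cybb down the erythroid side. Its levels were 1.79, 1.49 and 1.81 in KLS, 1.56, 1.68 and 1.69 in PreMegE, and 0.94, 1.36 and 2.21 in CFUe. These 3 fractions overlapped: the change was -0.06 ± 0.23 from KLS to PreMegE (adjusted p = 0.887) and -0.14 ± 0.23 from PreMegE to CFUe (adjusted p = 0.632). PreGM stood at 1.88, 1.96 and 1.90. GMP gave 3.09, 3.18 and 2.89, a rise of 1.14 ± 0.23 (adjusted p = 0.00142). In Mac1Gr1 the levels were 5.53, 5.69 and 5.76, above all other arrays, and 2.61 ± 0.23 above GMP (adjusted p = 1.69e-08). Ter119, at 3.48, 4.08 and 3.96, lay between GMP and Mac1Gr1 without overlapping either.

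Ncf1, the organiser of the cytosolic complex, separated every fraction from its neighbours. It read -0.30, -0.17 and -0.50 in KLS and -2.86, -2.93 and -2.89 in PreMegE. In CFUe the readings were -5.18, -5.28 and -4.07, with the probe well above background on 1 of the 3 arrays. The fall was -2.57 ± 0.24 to PreMegE (adjusted p = 3.35e-07) and a further -1.95 ± 0.24 to CFUe (adjusted p = 3.4e-06). On the other side of the tree, the Ncf1 levels of PreGM were 0.84, 0.76 and 0.92. They were 1.39, 1.73 and 1.83 in GMP and 5.66, 5.55 and 5.44 in Mac1Gr1. Ncf1 was the only member called higher in PreGM than in KLS, by 1.16 ± 0.24 (adjusted p = 0.00204), a call lost under spike-in scaling (0.55, adjusted p = 0.114). The step to GMP was 0.81 ± 0.24 (adjusted p = 0.0187), under the fold minimum, and the step to Mac1Gr1 was 3.90 ± 0.24 (adjusted p = 1.33e-10). Ter119 gave 3.95, 3.47 and 3.38. A second Ncf1 probe gave changes with the same signs in these steps. It gave 1.09 from PreGM to GMP (adjusted p = 0.0131), which passed the fold minimum, and -3.62 from PreMegE to CFUe (adjusted p = 4.49e-08). In CFUe the second probe was well above background on 0 of 3 arrays, so the size of that fall is uncertain. Under normexp background correction the first probe fell by less from PreMegE to CFUe (-0.59, adjusted p = 0.0015), under the fold minimum.

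Ncf4, the phosphoinositide-binding subunit, fell furthest between PreMegE and CFUe. Its levels were 3.76, 3.50 and 4.0 in KLS, then 1.62, 1.61 and 1.24 in PreMegE. The CFUe arrays read -3.83, -3.51 and -1.25, all well above background. The change was -2.26 ± 0.42 in PreMegE against KLS (adjusted p = 0.000567) and -4.35 ± 0.42 in CFUe against PreMegE (adjusted p = 2.31e-07). Slide as a block took the former to -1.45 (adjusted p = 0.140). PreGM read 4.55, 4.44 and 4.53, and GMP 5.46, 5.57 and 5.29. These fractions did not overlap, yet neither PreGM against KLS (0.75 ± 0.42, adjusted p = 0.214) nor GMP against PreGM (0.93 ± 0.42, adjusted p = 0.118) passed the test. The SE is shared by all fractions, and the CFUe arrays had the widest spread (SD 1.40). Without replicate 3 of both CFUe and PreGM the values were 0.74 (adjusted p = 0.00318) and 0.95 (adjusted p = 0.000446), under the fold minimum. The levels then rose to 8.27, 8.24 and 8.39 in Mac1Gr1, 2.86 ± 0.42 above GMP (adjusted p = 9.24e-06). In Ter119 they were 6.59, 6.76 and 6.64.

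Rac2, the haematopoietic Rac GTPase that also serves migration and adhesion, covered the narrowest range of fraction means after Cyba. KLS read 4.74, 4.59 and 4.70, PreMegE 4.39, 4.32 and 4.11, and CFUe 2.70, 2.83 and 3.57. The first step was -0.40 ± 0.17 (adjusted p = 0.0875) and the second -1.24 ± 0.17 (adjusted p = 8.86e-06). In PreGM the levels were 5.0, 5.07 and 5.11, in GMP 5.61, 5.61 and 5.47, and in Mac1Gr1 8.19, 8.04 and 8.20. Rac2 was 0.38 ± 0.17 above KLS in PreGM (adjusted p = 0.106, or 0.0296 without replicate 3 of both CFUe and PreGM) and 0.51 ± 0.17 higher in GMP than in PreGM (adjusted p = 0.0334), under the fold minimum. It was 2.58 ± 0.17 higher in Mac1Gr1 than in GMP (adjusted p = 2.6e-10). Ter119 read 6.66, 6.59 and 6.42. The second Rac2 probe gave 2.43 for Mac1Gr1 against GMP (adjusted p = 5.23e-10).

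By comparison, calls of the members were lower only along the progenitors of the erythroid side and higher only along the myeloid side and in Ter119. From KLS to PreMegE, 3 of the 5 members fell (Cybb, Ncf1, Ncf4) and none rose, against 8.86% of all probes called lower. From PreMegE to CFUe, Ncf1, Ncf4 and Rac2 fell, with 14.7% of probes called lower. From KLS to PreGM only Ncf1 rose, where 2.11% of probes were called higher, and from PreGM to GMP Cybb and Cyba rose, against 4.01%. All 5 rose from GMP to Mac1Gr1, in a comparison with 29.1% of probes called higher. In the same step 8 of 12 neutrophil granule genes were called higher and 4 lower, and 11 of 12 macrophage genes higher and 1 lower. All 8 B cell genes were called higher and 4 of 7 monocyte genes lower, where 27.6% of all probes were called lower. The mean level of the B cell list went from between -2.89 and -2.36 in GMP to between 0.52 and 1.21 in Mac1Gr1. The part of other cells in the subunit levels of Mac1Gr1 was not tested. In spike-in scaling, which lowers the median of all probes by 1.86 in this comparison, 2 of the 5 remained called (Cybb 1.73, adjusted p = 0.00409; Ncf1 1.87, adjusted p = 8.77e-07), and relative to that median the 5 members were 2.40 to 3.73 higher.

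**Figure D2:**
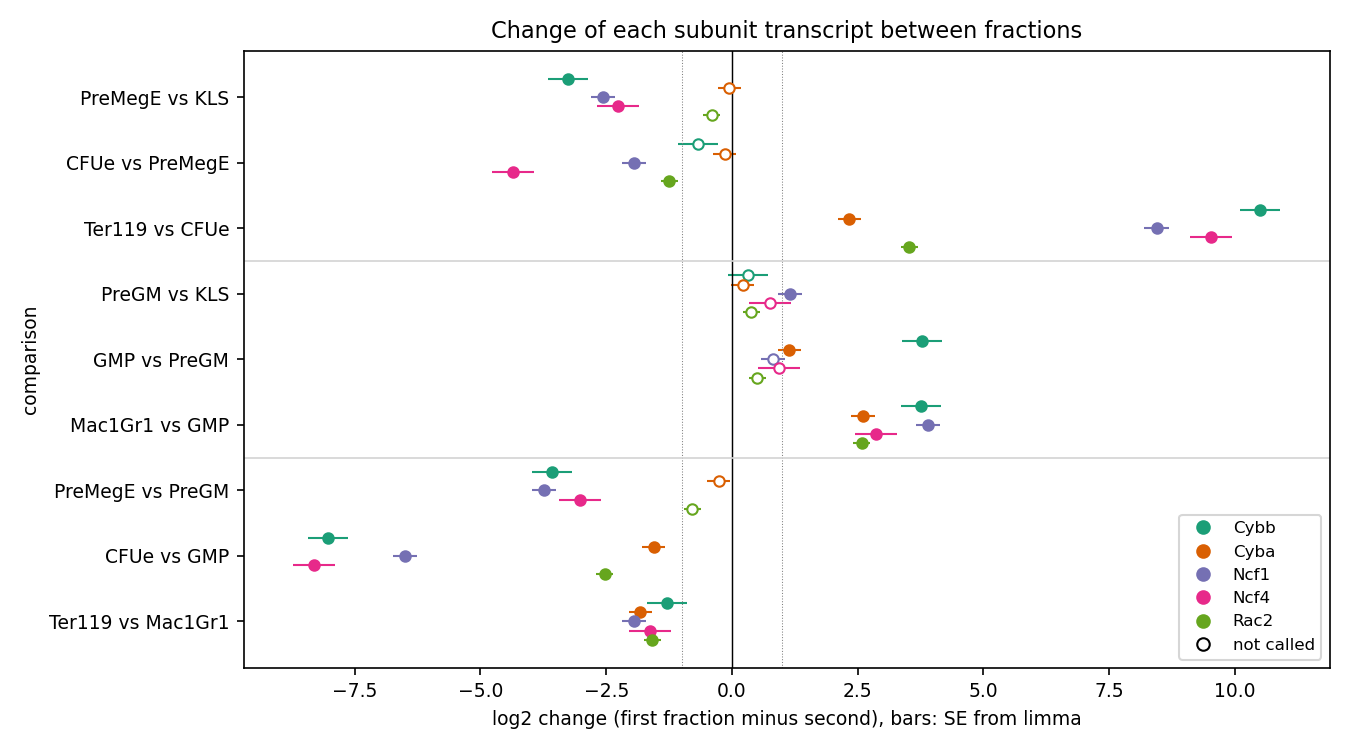
Log2 change of each subunit transcript in the 9 comparisons (horizontal axis, first fraction minus second, with bars for the limma SE); filled points passed an adjusted p of 0.05 and a 2-fold change, marked by the dotted lines. All 5 genes are higher in Mac1Gr1 than in GMP and in Ter119 than in CFUe, and Cyba and Rac2 lie nearer 0 than the others on most rows; points of Cybb against PreMegE or CFUe are fitted values in which the dim fraction is only a bound.

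Across matched stages the myeloid fraction had the higher level wherever a member was called. PreMegE was lower than PreGM for 3 of 5 members (Cybb, Ncf1, Ncf4), with 6.23% of probes called lower. The values were -3.73 ± 0.24 for Ncf1 (adjusted p = 5.55e-09) and -3.02 ± 0.42 for Ncf4 (adjusted p = 3.62e-05). Rac2 was 0.79 lower (-0.79 ± 0.17, adjusted p = 0.00177), under the fold minimum, and Cyba gave -0.27 ± 0.23 (adjusted p = 0.463). CFUe was lower than GMP for all 5, against 14.2% of probes. The differences ran from -1.55 ± 0.23 for Cyba (adjusted p = 2.49e-05) and -2.53 ± 0.17 for Rac2 (adjusted p = 1.09e-09) to -6.49 ± 0.24 for Ncf1 (adjusted p = 7.8e-13) and -8.30 ± 0.42 for Ncf4 (adjusted p = 3.73e-11). On the arrays with Xist transcripts alone, which leave out CFUe replicate 3, these were -1.91, -2.80, -6.88 and -9.11.

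CFUe replicate 3 stood apart from the other CFUe arrays. Relative to the mean of replicates 1 and 2 it was 1.06 higher for Cyba, 1.16 for Ncf1, 2.41 for Ncf4 and 0.80 for Rac2, and 0.22 lower (-0.22) for Cybb. On the same arrays the mean level of 12 neutrophil granule genes was -2.77, -2.79 and -0.39, and that of 7 monocyte genes was -4.54, -4.46 and -2.38. Their part in the higher subunit levels of CFUe replicate 3 was not tested. Leaving out that array changed no count of members called.

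The Ter119 fraction carried high levels of all 5 subunits. All 5 were higher than in CFUe, against 29.2% of probes, by 2.34 ± 0.23 for Cyba (adjusted p = 6.95e-08), 3.52 ± 0.17 for Rac2 (adjusted p = 4.67e-12), 8.44 ± 0.24 for Ncf1 (adjusted p = 1.5e-14) and 9.53 ± 0.42 for Ncf4 (adjusted p = 2.03e-12). Against its approximate bound in CFUe, Cybb was 300.4-fold higher (limma adjusted p = 3.47e-13 for the measured values). With Ter119 set against CFUe replicate 3 alone, in a fit of the arrays with Y-linked transcripts, the values were 1.63 for Cyba, 2.99 for Rac2, 7.66 for Ncf1 and 7.92 for Ncf4, with the lone CFUe array assumed to vary like the others. Under spike-in scaling the Cyba difference was 0.96 (adjusted p = 0.00655), under the fold minimum, where the median of all probes was -1.33. That scaling also put Ter119 below KLS for Cyba and Rac2, and below PreGM for Rac2. The erythroid list was high in Ter119, with mean levels of 5.08 to 5.52 over 8 genes.

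Markers of several other blood cells were also higher there than in CFUe. The neutrophil granule list had a mean of 6.90 to 7.01 in the Ter119 arrays, against 6.74 to 7.05 in Mac1Gr1, and all 12 of its genes were called higher than in CFUe. Of the other lists, 7 of 7 monocyte, 8 of 8 B cell and 10 of 12 macrophage genes were higher in Ter119 than in CFUe. So were 6 of 6 mast cell or basophil, 4 of 4 eosinophil and 3 of 4 T cell genes. Of 5 megakaryocyte genes, 3 were higher and 1 lower. Over all probes 29.2% were higher. The B cell list had a mean of 2.95 in Ter119 and 0.94 in Mac1Gr1. The macrophage list stood at -0.50 in Ter119, below KLS (1.91) and Mac1Gr1 (0.87). Itgam, which encodes the Mac1 antigen, stood at 3.02 in Ter119 and 5.16 in Mac1Gr1. The part of these other cell types in the subunit levels of Ter119 was not tested. All 5 members were lower in Ter119 than in Mac1Gr1, against 19.9% of probes, by values from -1.29 ± 0.40 for Cybb (adjusted p = 0.0093) to -1.95 ± 0.24 for Ncf1 (adjusted p = 1.88e-06), where the median of the neutrophil granule list was -0.05. These fractions also differ in Xist and Y-linked transcripts on every array. With a block for that split, which only CFUe and PreGM can estimate, the differences were -2.34 for Cyba, -2.59 for Ncf1, -2.86 for Ncf4 and -2.03 for Rac2 (adjusted p of 8.34e-05 or less), and -0.78 for Cybb (adjusted p = 0.263). With slide as a block neither Cybb (-1.15, adjusted p = 0.115) nor Ncf4 (-0.69, adjusted p = 0.322) was called, and with quantile scaling Cybb was not (-0.80, adjusted p = 0.0671).

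**Figure D3:**
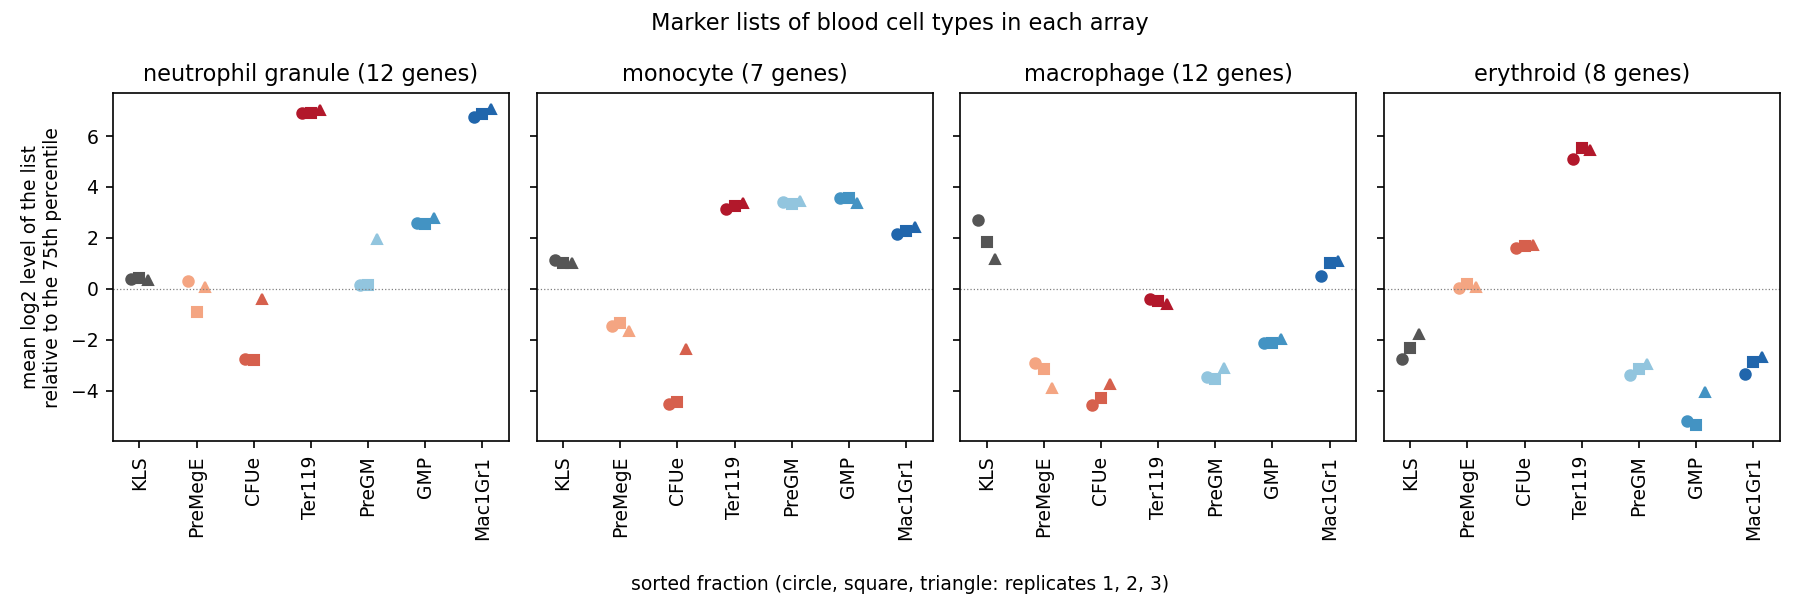
Mean log2 level of 4 marker lists relative to the array's 75th percentile (vertical axis) on each of the 21 arrays, by fraction, with 1 point per array. The neutrophil granule list is about as high in Ter119 (6.90 to 7.01) as in Mac1Gr1 (6.74 to 7.05), the macrophage list is highest in KLS, and CFUe replicate 3 lies above replicates 1 and 2 in the neutrophil and monocyte lists.

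KLS also carried markers of mature cells beside its subunit transcripts. The macrophage list had means of 1.17 to 2.71 there, against -3.91 to -2.91 in PreMegE and -3.53 to -3.11 in PreGM. All 12 genes were called lower in both, against 8.86% and 6.53% of all probes. C1qa, a complement gene of tissue macrophages, stood at 1.78 in KLS and -4.81 in PreGM. Their part in the fall of Cybb, Ncf1 and Ncf4 from KLS to PreMegE was not tested.

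The second step differed between the sides for every member. Taking the change from PreMegE to CFUe minus that from PreGM to GMP, the difference was -1.29 ± 0.33 for Cyba (adjusted p = 0.00558), -1.75 ± 0.24 for Rac2 (adjusted p = 2.23e-05), -2.76 ± 0.34 for Ncf1 (adjusted p = 8.28e-06) and -5.29 ± 0.60 for Ncf4 (adjusted p = 3.24e-06). For Cybb it was -4.46 ± 0.56 (adjusted p = 1.15e-05), with both erythroid fractions at background. At the adjusted p alone, with no fold minimum, 16.0% of probes were lower in this contrast. For Cyba the myeloid rise alone passed the test, and for Ncf4 the erythroid fall alone did.

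The final step, from CFUe to Ter119 minus from GMP to Mac1Gr1, was larger on the erythroid side for Ncf1 (4.54 ± 0.34, adjusted p = 9.89e-09), Ncf4 (6.67 ± 0.60, adjusted p = 8.22e-08) and Rac2 (0.95 ± 0.24, adjusted p = 0.00262). Cybb gave 6.75 ± 0.56 (adjusted p = 3.86e-08), a fitted value that rests on the dim CFUe arrays. Its second probe gave 2.11 (adjusted p = 0.00354). That probe was likewise too dim in CFUe, with 0 of 3 arrays well above background, so its value has the same limit. For Cyba the steps did not differ beyond their spread (-0.27 ± 0.33, adjusted p = 0.51). At the adjusted p alone 26.0% of all probes were higher here. The markers of other cells listed for Ter119 enter this contrast as well.

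Subunits were also set against each other on the same array. A difference between probes of 2 genes has no meaning as a level, but its change over fractions shows unequal change. In a permutation test over the 21 arrays (100000 resamples, one-sided on the F value for the 7 fractions), all 10 pairs differed between fractions, with Benjamini-Hochberg adjusted p of 0.00015 or less and 1e-05 as the smallest p the resamples can give. Cyba and Rac2 kept closest, with fraction means of their difference covering 1.62 log2 units. Cybb and Cyba, the membrane pair, covered 8.17 with the dim Cybb fractions at their measured values and 6.70 with them at their bounds. Ncf1 and Ncf4 covered 2.40, Cybb and Ncf1 3.50. Cyba and Ncf4 covered 7.19, from 4.36 in CFUe to -2.83 in Ter119.

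**Figure D4:**
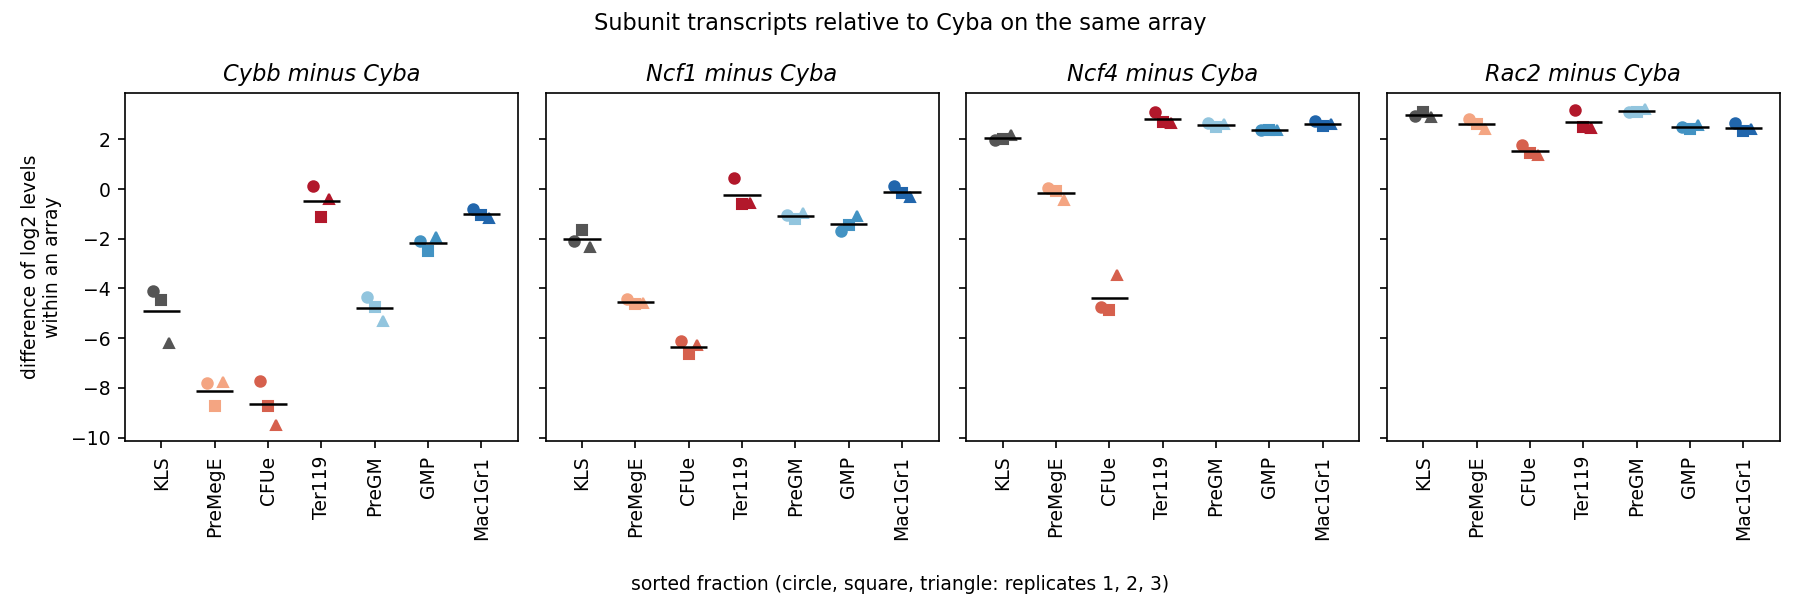
Difference of the log2 levels of Cybb, Ncf1, Ncf4 and Rac2 from that of Cyba on the same array (vertical axis, log2 units), by fraction, with 1 point per array and a bar at the mean. Rac2 minus Cyba covers 1.62 units over the fractions and Cybb minus Cyba 8.17 as measured (6.70 at the bounds), with the lowest Cybb values in PreMegE and CFUe, where its probe was not well above background.

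The genes whose levels followed each member most closely were found by the root mean square difference of centred log2 levels over the 21 arrays, among 14158 genes. For Cybb these were Aldh3b1 (0.898), Pglyrp1 (0.994), a peptidoglycan-binding protein of neutrophil granules, and Slfn2 (1.01). Cyba was closest to Glrx (0.233), which encodes glutaredoxin, Ostf1 (0.313) and Fam222b (0.340). Ncf1 had Slc31a2 (0.538), Aatk (0.557) and Ptgir (0.586), the prostacyclin receptor. The nearest to Ncf4 were Ckap4 (0.305), Myo1f (0.553), a myosin of leukocytes, and Csf2rb2 (0.561), a cytokine receptor subunit. Rac2 was followed by Gmip (0.263), Ankrd44 (0.306) and Cxcr4 (0.318), a chemokine receptor. Among the members themselves Cyba and Rac2 were closest (0.509), then Ncf1 and Ncf4 (0.835). This distance is not scaled to the range of a gene. By rank among all genes compared, Rac2 was number 37 for Cyba and Cyba number 51 for Rac2. Ncf4 was number 17 for Ncf1, and Ncf1 number 20 for Ncf4.

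Other genes of the pathway were taken from a list of 42, of which 39 had a probe and 36 passed the filter. From GMP to Mac1Gr1, 22 of the 36 rose and 2 fell, where 29.1% of all probes rose and 27.6% fell, and the median change was 1.17 beside 0.17 over all probes. From CFUe to Ter119, 20 rose and 1 fell (29.2% and 28.0% of probes), with a median of 1.67 beside 0.05. From KLS to PreMegE 8 fell and none rose (8.86% and 3.55% of probes), and from PreMegE to CFUe 16 fell and none rose (14.7% and 9.96%). PreGM had 1 higher and 5 lower than KLS (2.11% and 6.53% of probes), and GMP had 7 higher and none lower than PreGM (4.01% and 6.36%). At matched stages most calls were lower on the erythroid side. In PreMegE 2 genes were higher and 5 lower than in PreGM (5.81% and 6.23% of probes), and in CFUe 1 was higher and 19 lower than in GMP (12.1% and 14.2%). In Ter119 2 were higher and 24 lower than in Mac1Gr1 (22.0% and 19.9%).

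Of the receptors that trigger the oxidase, all 9 tested rose from GMP to Mac1Gr1 (median 5.83, against 29.1% of all probes). All 9 also rose from CFUe to Ter119 (median 6.40, against 29.2%). In Ter119 all 9 were lower than in Mac1Gr1 (median -2.38, against 19.9%). Fpr1, a receptor for bacterial formyl peptides, had a mean level of 6.74 in Mac1Gr1 and 4.09 in Ter119, and was well above background on 1 of 3 GMP arrays. From PreGM to GMP 5 of the 9 were called higher, against 4.01% of probes. They were Fcgr3, Fcgr4, Itgb2, Tlr4 and C5ar1, the last of them not well above background on any array of either fraction. Fcgr3, an IgG receptor, went from -0.28 to 3.33 in that step (adjusted p = 3.3e-06). In PreMegE 5 of the 9 receptors were lower than in KLS (8.86% of probes), and in PreGM 4 were (6.53%). Itgam stood at -0.66 in GMP and 5.16 in Mac1Gr1 (adjusted p = 2.85e-10).

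Among the kinases that act on the subunits, 6 of 10 rose and 1 fell from GMP to Mac1Gr1 (29.1% and 27.6% of all probes). Prkcb, the protein kinase C isoform that phosphorylates p47phox, had mean levels of -2.93 in PreGM, 1.09 in GMP and 4.28 in Mac1Gr1, and it rose in both steps (4.02 ± 0.41, adjusted p = 1.74e-06; 3.19 ± 0.41, adjusted p = 1.94e-06). Prkcd rose by 1.86 ± 0.11 in the last step (adjusted p = 4.71e-11). Of the 10 Rac and Rap GTPases and their regulators, 4 rose and none fell in that step, against the same 29.1% and 27.6% of probes. The count that rose is near the share of all probes. Rac1, the widely expressed relative of Rac2, kept to mean levels of 2.92 to 3.78 and was called in none of the 9 comparisons. Dock2, a Rac activator of leukocytes, fell from PreMegE to CFUe by 2.56 (-2.56 ± 0.22, adjusted p = 6.37e-08).

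Of the 5 further subunit and oxidase partners, 3 rose and 1 fell from GMP to Mac1Gr1 (29.1% and 27.6% of all probes). Hvcn1, the proton channel that offsets the charge moved by the oxidase, fell from KLS to PreMegE (-2.54 ± 0.27, adjusted p = 1.95e-06) and to CFUe (-2.26 ± 0.27, adjusted p = 3.03e-06). It rose from PreGM to GMP by 1.96 ± 0.27 (adjusted p = 4.9e-05), and its order over the fractions began as that of the subunits did, with 4.30 in Mac1Gr1, 3.60 in Ter119 and 3.13 in GMP. Mpo, the granule enzyme that uses the peroxide formed from superoxide, was the one that fell, from a mean level of 9.19 in GMP to 5.22 in Mac1Gr1. Cybc1, a chaperone for the membrane pair, stood between 1.84 in CFUe and 3.71 in Mac1Gr1. Of the other NADPH oxidases and their partners, Nox4 and Noxa1 were the 2 genes tested. Their mean levels lay between -5.64 and -3.76, and neither was called in any comparison.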

How the data were processed

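RNA from 21 samples of 7 sorted fractions was hybridised by the authors to one-colour Agilent arrays after TRIzol extraction. The deposited scanner files hold a processed signal intensity per spot, with background subtracted by Agilent Feature Extraction 10.7.1.1, and probe annotation on mm9. The deposited series table holds log2 values of the same arrays, whose scaling is not given in the sources used here, and served as an alternative.

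Control spots and outlier spots (80 to 283 per array) were left out, and spots of a probe were averaged. Signals were log2-transformed and the 75th percentile of each array was subtracted. A probe was tested where at least 1 fraction had it well above background in its 3 arrays, which kept 29532 of 41174. One model over the 7 fractions was fitted with limma 3.58.1 in R 4.3.3, with Benjamini-Hochberg adjustment over those probes, and was checked on simulated data. Of the probes, 64.8% matched a RefSeq symbol. Python 3.11.15 was used for the permutation tests. The number of arrays limits the precision. Slide was tried as a block: there were 9 slides, and all arrays were scanned on 1 day.

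The members and the gene lists were chosen with earlier results of these data known. The text names the members, genes of the pathway list, the 3 genes most like each member, and markers (erythroid, neutrophil granule, monocyte, macrophage, eosinophil, mast cell or basophil, B cell, T cell, megakaryocyte, sorting antigens) beside results they move with. Alternatives were other scalings, background correction with normexp (offset 50), no dim-probe filter, blocks for slide and replicate number, other probes and arrays, and no minimum fold. A block for Xist and Y-linked transcripts, fits within each kind of array, and the omission of replicate 3 of both CFUe and PreGM were chosen after seeing the data.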

Additional observations from a re-analysis of the deposited data

Results flagged for a closer look

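The change at matched steps of the erythroid and myeloid sides differed for 9 of the 10 combinations of a member and a step. The test was limma's contrast of the changes at an adjusted p under 0.05, with no fold minimum. In the second step (PreMegE to CFUe minus PreGM to GMP) the differences were -4.46 for Cybb, -1.29 for Cyba, -2.76 for Ncf1, -5.29 for Ncf4 and -1.75 for Rac2. In the last step (CFUe to Ter119 minus GMP to Mac1Gr1) they were 6.75 for Cybb, 4.54 for Ncf1, 6.67 for Ncf4 and 0.95 for Rac2. The Rac2 value there is under the 2-fold minimum used for calls. At the adjusted p alone, 16.0% of all probes were lower in the second step and 26.0% were higher in the last. The Cybb values include fractions in which the probe was not well above background. The Ter119 arrays held neutrophil granule transcripts at the level of Mac1Gr1, and the part of those cells in the last step was not tested.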

How the results depend on the processing

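Of 55 results (the change of 1 member in 1 comparison or step), 32 kept direction and side of the threshold under every alternative run, as did 1115 of 1160 alternative values. Scaling to the spiked-in RNA (7 of 10 sequences) moved the median of all probes from -1.86 (Mac1Gr1 against GMP) to 0.99 (GMP against PreGM). Under it 0 members were called in PreGM against KLS, 5 in GMP against PreGM and 2 in Mac1Gr1 against GMP. With a block for Xist transcripts 2 were called in PreGM against KLS and 4 in GMP against PreGM. Without a minimum fold 4 were called in GMP against PreGM, and with slide as a block 3 in Ter119 against Mac1Gr1. Leaving out any 1 array changed no count of members called.

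Several results that were not called changed sign. Cyba in the last step became 0.25 under quantile scaling, 0.38 under spike-in scaling, 0.33 in the deposited series table, 0.27 with slide as a block, and 0.083 without replicate 3 of both CFUe and PreGM. Leaving out each array in turn gave -0.55 to 0.083 (the highest without CFUe replicate 3). Cybb in PreGM against KLS became -0.30 under spike-in scaling, -0.023 with the Xist block and -0.21 on arrays with Y-linked transcripts, and ran from -0.26 (without KLS replicate 3) to 0.77 with single arrays left out. Spike-in scaling also gave -0.40 for Cyba and -0.23 for Rac2 there. Cybb in CFUe against PreMegE became 0.10 with normexp. Cyba in PreMegE against KLS became 0.25 with slide as a block, and ran from -0.16 to 0.0021 (without KLS replicate 3). Cyba in CFUe against PreMegE became 0.20 with the Xist block and 0.56 on arrays with Y-linked transcripts, and ran from -0.50 (without CFUe replicate 3) to 0.14 (without CFUe replicate 1). The causes were not tested.

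Calls were lost with normexp for Cybb in PreMegE against KLS (-0.94) and Ncf1 in CFUe against PreMegE (-0.59), and with the Xist block for Rac2 in CFUe against PreMegE (-0.95). Slide as a block ended the Ncf4 call in Ter119 against Mac1Gr1 (-0.69, limma adjusted p = 0.322), where the Cybb call also ended in the series table (-0.74) and with the Xist block (-0.78). The replicate block, with the labels' replicate number, left the counts at 3, 3, 5, 1, 2, 5, 3, 5 and 5 in the order of the comparison plot and changed no other call. The numbers do not pair the samples: deviations of same-numbered arrays correlated from -0.43 to 0.37 (median 0.0025, 63 pairs), and 7 of 21 arrays correlated best with their own number. With the mean of all probes of a gene, 1 of the 3 genes most like a member changed for each of Cybb, Cyba, Ncf1 and Rac2. The Cybb probe's signal over background limits its values in PreMegE and CFUe to approximate bounds.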
